A study of Mus musculus with 16 samples.

Results

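The response of wild-type mouse liver to TCPOBOP was measured by sequencing polyadenylated RNA from 4 livers given the compound and 4 given vehicle. These 8 libraries were all those of the wild-type strain among the 16 of the series, and every gene was considered, without choosing genes by their values. Of the 24970 genes in the count table, 12913 passed the filter on low counts and were tested. Both groups were C57BL/6 Ntac mice. The vehicle livers came from mice given 2% DMSO in corn oil, and the TCPOBOP livers from mice given 3 mg/kg in 2 administrations with 24 h between them and 48 h of treatment in all. The other 8 libraries came from the humanized PXR-CAR-CYP3A4/3A7 strain, 4 with vehicle and 4 with the same TCPOBOP treatment, and are used here for 1 comparison of the responses. For sex, age, feeding and time of day, the labels used here give nothing. Only the number of 4 per group speaks to the independence of the samples, so p-values measure the spread between these samples.

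TCPOBOP is a synthetic compound that strongly activates mouse CAR, the constitutive androstane receptor encoded by Nr1i3. CAR is a nuclear receptor of hepatocytes that binds DNA as a partner of the retinoid X receptor and turns on genes that oxidize, conjugate and export foreign compounds and bilirubin. In mice its activation is also known to enlarge the liver and to drive hepatocytes into the cell cycle, and to lower genes of glucose production and fat burning.

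Expression is given in CPM, a gene's counts relative to the total of its library after TMM scaling, times the usual factor of 1000000, with the libraries always listed from replicate 1 to 4 and the vehicle values before the TCPOBOP values. They are called vehicle 1 to 4 and TCPOBOP 1 to 4. Log2 changes are TCPOBOP minus vehicle ± SE, and a gene rose or fell where its adjusted p was below 0.05 in edgeR's quasi-likelihood test. In parentheses after a count or call stand the values under another scaling, tool, filter or set of libraries where these ended a call or moved a value by over 1.5 times, thinned counts being those drawn down to the smallest library. CPM is not divided by transcript length, so it ranks genes by reads and not by molecules.

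The libraries differed in depth by group. Total counts were 11827994 to 19483951 in vehicle and 30228724 to 37998473 in TCPOBOP libraries over all accessions. With 1 accession kept per gene they were 6831625 to 11388786 and 17832114 to 22331755, and a count of 3 in these gene totals after TMM scaling corresponded to 0.134 to 0.44 CPM. With the counts thinned to the smallest library, 874 genes rose and 615 fell. Vehicle 2 and TCPOBOP 2 stood apart from their groups on the second principal component, which held 21.1% of the variance of the 1000 most variable genes against 66.3% for the first. The deviation of a library from the rest of its group correlated across genes with transcript GC content at a Spearman rho of 0.65 in vehicle 2 and 0.62 in TCPOBOP 2, against -0.27 to -0.53 in the other 6. Without both of these libraries 1099 genes rose and 684 fell. Xist was at or below 0.293 CPM and Ddx3y between 19.4 and 84.5 CPM in all 8 libraries. Hepatocyte transcripts dominated every library, Alb at 11796 CPM or more, and the 11 hepatocyte markers tested, 4 of which fell, summed to 110126 to 146640.2 CPM in vehicle and 46040.1 to 71372 CPM in TCPOBOP livers.

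TCPOBOP changed the expression of 1690 genes, 13.1% of those tested. Of these 1045 rose (8.09%) and 645 fell (4.99%). The fall count was 360 without TCPOBOP 3 and 333 without TCPOBOP 4. Scaling by library totals alone gave 1281 that rose and 478 that fell. Rises were larger than falls at the top of the range. At least 8-fold changes were found in 135 genes that rose and 24 that fell, and the median log2 change was 1.21 for genes that rose, -1.03 for genes that fell and -0.02 for all genes tested. In 1474 of the 1690 genes the 4 TCPOBOP and 4 vehicle libraries did not overlap, as they did not in 2697 genes (20.9%) of all those tested.

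Rises and falls sat at different levels of expression. Of 548 tested genes below 1 CPM in vehicle liver, 170 (31.0%) rose and 3 fell. Of the 122 genes at 1000 CPM or more, 5 (4.10%) rose and 33 (27.0%) fell. A gene near 0 in vehicle liver could pass the filter on low counts only through another group, so the share that rose from below 1 CPM does not describe all low genes. The genes that rose gained 106958 CPM in sum and those that fell lost 116437 CPM, and the 10 largest held 46.2% of the gain and 57.0% of the loss. The 10 largest gains were those of Cyp3a11, Cyp2c29, Ces2a, Gstm3, Gstm1, Cyp2c50, Cyp2b10, Cyp2a5, Cyp1a2 and Clu, of which 9 encode enzymes that oxidize, hydrolyse or conjugate foreign compounds. The 10 largest losses were those of Alb, Trf, Ahsg, Pck1, Mat1a, Itih3, Mug1, Ttr, Mug2 and Uox, of which 7 encode proteins secreted into blood plasma. The call of Ttr depended on single libraries (adjusted p = 0.054 without vehicle 1, 0.0788 without vehicle 3, 0.0827 without vehicle 4, 0.0548 without TCPOBOP 1, 0.126 without TCPOBOP 3, 0.134 without TCPOBOP 4, and adjusted p = 0.0608 without the filter), the size of the fall of Mug2 on vehicle 2 (log2 change -2.98 ± 0.46, adjusted p = 1.89e-04, and log2 change -2.33 without vehicle 2), and Ahsg overlaps the noncoding gene Gm30505 at means of 729.8 and 365 CPM.

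**Figure D1:**
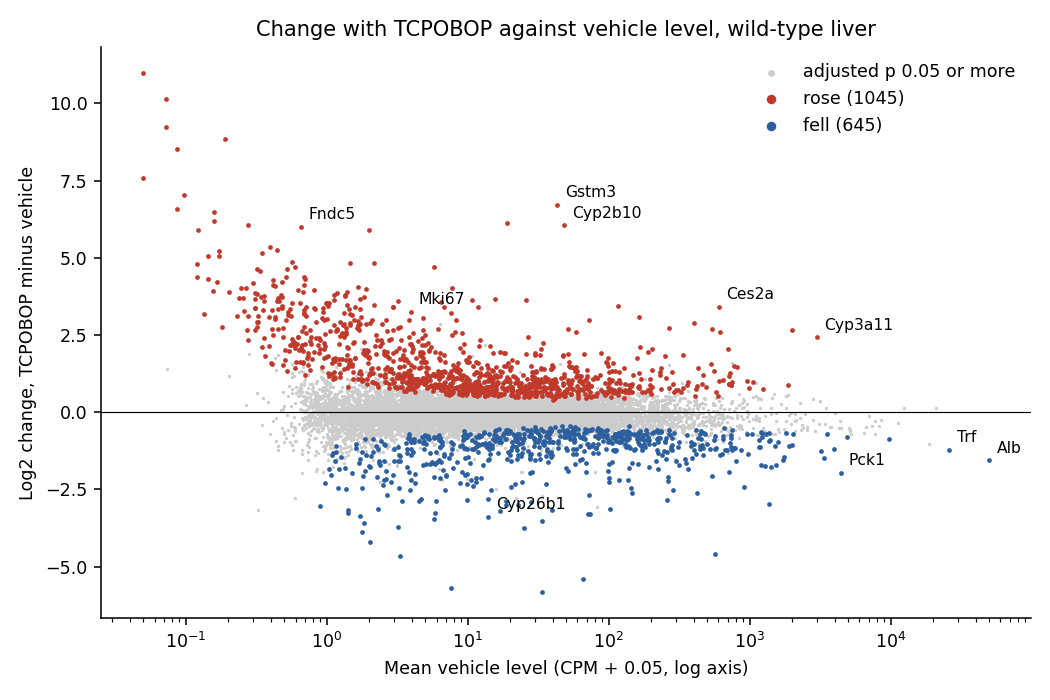
Log2 change with TCPOBOP in wild-type liver against the mean vehicle level (CPM plus 0.05, log axis) for the 12913 genes tested, grey where the adjusted p was 0.05 or more, red where genes rose (1045) and blue where they fell (645). The red points reach further from 0 than the blue ones and lie mostly at low and middle levels, while several of the most abundant genes are blue.

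Cytochromes P450 of families 1 to 3, the hepatic oxidases of drugs and steroids, took a larger part of the messenger RNA pool. Their share of the gene counts was 1.68, 1.21, 2.35 and 2.60% in vehicle and 5.76, 5.25, 6.07 and 6.30% in TCPOBOP libraries, a mean of 1.96% ± 0.631 against 5.84% ± 0.452 (SD, n = 4; two-sided exact permutation test p = 0.0286, the smallest that 4 against 4 libraries allow, and 0.04 adjusted over the 7 families compared). Every TCPOBOP library was above every vehicle library. Of 44 members tested, 14 rose and 9 fell, against 8.09% and 4.99% of all genes.

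Cyp2b10 (NM_009999, chromosome 7, 25897658 to 25926624 of mm10), the classical CAR target, was at 16.4, 37.3, 89.9 and 49.2 CPM in vehicle livers and at 2868, 3558, 3322 and 3041 CPM in TCPOBOP livers (log2 change 6.05 ± 0.49, adjusted p = 2.44e-07). Vehicle 1 was the lowest and vehicle 3 the highest vehicle liver, and the TCPOBOP livers lay close together far above them. Cyp2c55, an epoxygenase of fatty acids, went from 6.89, 17.5, 26.2 and 25.0 to 1369, 1013, 1365 and 1534 CPM (log2 change 6.12 ± 0.35, adjusted p = 6.22e-09). Cyp3a11, the main mouse counterpart of human CYP3A4, went from 1279, 2016, 2878 and 5751 to 16046, 13689.8, 17321 and 16662 CPM (log2 change 2.42 ± 0.38, adjusted p = 2.59e-04). Vehicle 4 was the highest vehicle liver and still lay below every TCPOBOP liver. Cyp2c29, an abundant P450 of the same subfamily as Cyp2c55, went from 1208, 1099.6, 3063 and 2582 to 13459, 10873, 13599 and 12542 CPM (log2 change 2.67 ± 0.32, adjusted p = 1.73e-05). Cyp2a5, the coumarin hydroxylase, rose from 534, 551, 219 and 313 to 2298, 4008, 2374 and 3303 CPM (log2 change 2.89 ± 0.33, adjusted p = 1.01e-05). Cyp1a2, an enzyme of aromatic amines usually studied as a target of the aryl hydrocarbon receptor, rose from 688, 521, 781 and 800.1 to 2568, 3285, 2747 and 2988 CPM (log2 change 2.05 ± 0.21, adjusted p = 2.62e-06), and vehicle 1 and 2 lay below vehicle 3 and 4. Cyp3a44, of the Cyp3a cluster, rose from 0.586, 0.951, 0.188 and 0.909 to 4.70, 5.01, 5.33 and 8.23 CPM (log2 change 3.11 ± 0.41, adjusted p = 3.07e-04). Not all members went up. Cyp2c38 fell from 38.7, 25.1, 23.6 and 23.8 to 3.99, 4.42, 3.27 and 2.98 CPM (log2 change -2.91 ± 0.28, adjusted p = 1.34e-06). Cyp2c23, an arachidonic acid epoxygenase, fell from 222, 199, 313 and 315 to 78.0, 55.7, 54.7 and 33.4 CPM (log2 change -2.24 ± 0.26, adjusted p = 1.61e-05), with TCPOBOP 4 the lowest. Cyp2c67 fell from 95.4, 66.6, 115 and 126 to 28.6, 26.0, 19.1 and 18.4 CPM (log2 change -2.13 ± 0.23, adjusted p = 5.03e-06). Cyp2c69 fell from 11.1, 16.7, 1.13 and 0.999 to 0.109, 0.179, 0.0935 and 0.144 CPM (log2 change -5.70 ± 0.91, adjusted p = 2.78e-04), and the size moved without 1 library (log2 change -4.86 without vehicle 2, and log2 change -7.16 with thinned counts, -5.05 without both libraries numbered 2). The Cyp2c subfamily held members that moved in opposite directions with no overlap between groups. Members of the Cyp2c and Cyp3a clusters share long stretches of sequence, and how reads that fit several members were counted is not known here.

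**Figure D2:**
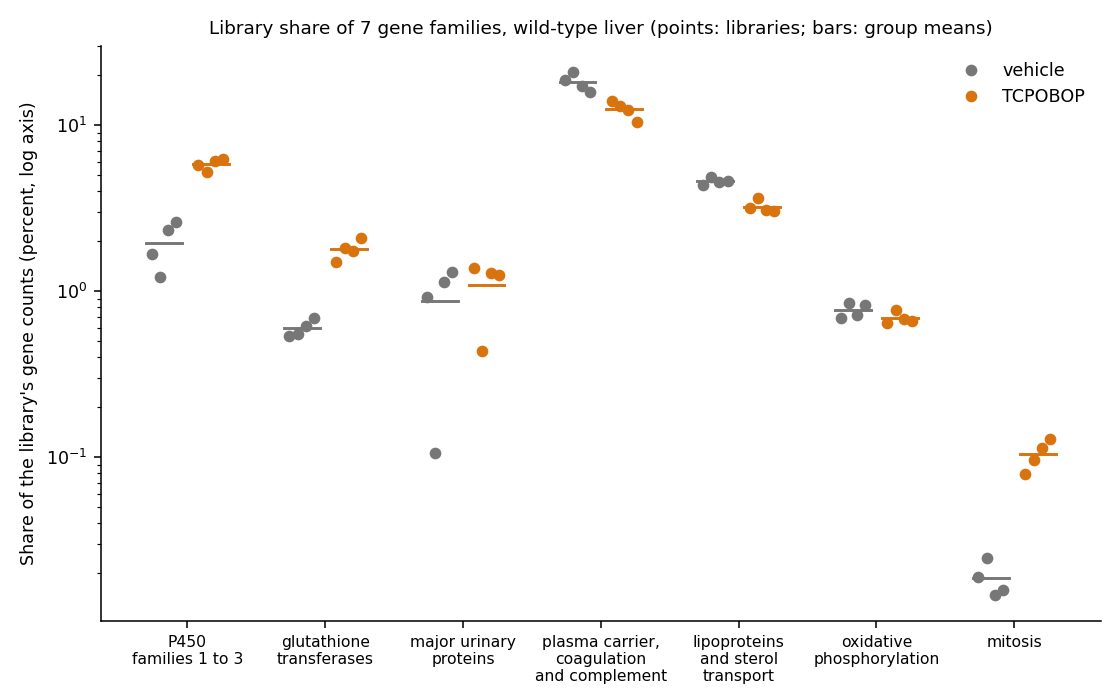
Share of each library's gene counts (percent, log axis) held by 7 gene families in the 4 vehicle and 4 TCPOBOP libraries of wild-type liver, with a bar at the mean of each group. The groups do not overlap for P450 families 1 to 3, glutathione transferases and mitosis, which are higher with TCPOBOP, nor for plasma proteins and lipoproteins, which are lower; those of major urinary proteins and oxidative phosphorylation overlap.

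The electron supply of these oxidases and the cofactors of conjugation moved in part. Of 20 genes of electron transfer and heme synthesis, 4 rose and 0 fell (1 without vehicle 2 or without both libraries numbered 2). Por, the reductase that passes electrons from NADPH to every microsomal P450, was at 674, 1325, 379 and 541 CPM in vehicle and 1514, 2450.2, 1559.7 and 1486 CPM in TCPOBOP livers (log2 change 1.26 ± 0.31, adjusted p = 0.0105, and adjusted p = 0.0507 with the wild-type libraries alone). Cyb5a, cytochrome b5, an alternative electron donor, went from 643, 585, 799 and 838 to 1528, 1607, 1636 and 1668 CPM (log2 change 1.17 ± 0.19, adjusted p = 3.63e-04). Both groups were apart in both genes, although Por in vehicle 2, at 1325 CPM, came close to the lowest TCPOBOP liver. Alas1, the rate-limiting enzyme of heme synthesis, was at 804, 1592, 369.5 and 825 CPM and 1071, 1925, 1055 and 799.9 CPM and did not pass (log2 change 0.43 ± 0.39, adjusted p = 0.554). Of 15 genes that make NADPH, 5 rose and 0 fell (1 with the wild-type libraries alone). They included Pgd of the pentose phosphate pathway (log2 change 1.17 ± 0.23, adjusted p = 0.00198), the NAD kinase gene Nadk (log2 change 1.12 ± 0.23, adjusted p = 0.00271) and the cytosolic isocitrate dehydrogenase gene Idh1 (log2 change 0.85 ± 0.18, adjusted p = 0.00432).

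Glucuronidation, which attaches glucuronic acid to drugs and bilirubin, rose in large part through 1 locus. Its members rose in 61.9% and fell in 14.3%, against 8.09% and 4.99% of all genes. Of 21 members, 13 rose and 3 fell (0 without vehicle 4 or TCPOBOP 4, 1 without vehicle 3 or TCPOBOP 2 or 3, with library totals or with the wild-type libraries alone), with a median log2 change of 0.89 against -0.02 over all genes. Ugdh, which makes the activated sugar UDP-glucuronic acid, went from 189.7, 167, 228 and 225 to 438, 491, 508 and 648 CPM (log2 change 1.37 ± 0.18, adjusted p = 3.97e-05). Ugt1a1, the bilirubin-conjugating enzyme, went from 878, 797, 1001 and 1127 to 1831, 1828, 1945 and 2037 CPM (log2 change 1.01 ± 0.17, adjusted p = 4.85e-04). Every TCPOBOP liver was above every vehicle liver in both. Ugt1a genes made up 8 of the 13 members that rose. They share their last exons and had vehicle means from 709 CPM (Ugt1a2) to 951 CPM (Ugt1a1), so they count the same locus more than once and the rise of a single isoform cannot be told apart. Ugt2b34, from a separate cluster on chromosome 5, rose 2.97-fold (log2 change 1.57 ± 0.24, adjusted p = 2.01e-04).

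Glutathione transferases rose as a family. Their share of counts was 0.534, 0.554, 0.616 and 0.686% in vehicle and 1.50, 1.82, 1.74 and 2.10% in TCPOBOP libraries, 0.597% ± 0.0687 against 1.79% ± 0.245 (SD, n = 4, exact permutation p = 0.0286, 0.04 adjusted over 7 families). Of 22 members, 11 rose and 1 fell (0 without vehicle 2 or TCPOBOP 1, 3 or 4 or without both libraries numbered 2, 2 with DESeq2 or with thinned counts), and the 1 that fell was Mgst3 (log2 change -1.29 ± 0.37, adjusted p = 0.0279, and adjusted p = 0.125 without vehicle 2, 0.0722 without TCPOBOP 1, 0.102 without TCPOBOP 3, 0.0515 without TCPOBOP 4, and adjusted p = 0.059 with the wild-type libraries alone, 0.0928 without both libraries numbered 2). Gstm3 (NM_010359, chromosome 3, 107963696 to 107969174) was at 40.8, 55.1, 45.6 and 30.2 CPM in vehicle and 3426, 4869.8, 4383 and 5243 CPM in TCPOBOP livers (log2 change 6.71 ± 0.30, adjusted p = 2.06e-10), the smallest p among the tested members. The mu-class neighbours on the same chromosome moved less, Gstm1 from 471, 978, 477 and 538 to 2960.4, 4203, 3399 and 4524 CPM (log2 change 2.61 ± 0.26, adjusted p = 2.50e-06) and Gstm2 from 28.7, 35.4, 21.0 and 19.1 to 267, 365, 301 and 355 CPM (log2 change 3.63 ± 0.28, adjusted p = 1.23e-07). Gsta1, of the alpha class, had 6 counts in all over the vehicle libraries and was at 55.2, 73.5, 75.8 and 92.0 CPM with TCPOBOP, 536-fold higher by the ratio of means (the fitted log2 change 8.83 ± 0.53, adjusted p = 8.25e-09, and log2 change 9.83 without vehicle 4). Gstm4 rose from 50, 49.0, 53.3 and 54.0 to 155, 197, 152 and 268 CPM (log2 change 1.90 ± 0.18, adjusted p = 1.04e-06). These members resemble each other closely in sequence, so in this respect the family value is firmer than that of a single member. But a share weighs abundant genes most, and Gstm3 and Gstm1 were the highest with TCPOBOP of the members given here.

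Sulfation, hydrolysis and other oxidations moved in both directions. Of 18 sulfation genes, 5 rose and 1 fell (0 without vehicle 1 or 3 or TCPOBOP 2, 3 or 4, with library totals or with the wild-type libraries alone, 2 without vehicle 4, 3 with DESeq2). Papss2, which makes the sulfate donor PAPS, went from 218, 267, 281 and 353 to 631, 703, 675 and 728 CPM (log2 change 1.29 ± 0.25, adjusted p = 0.00158). Sult1c2, a sulfotransferase, rose from 3.81, 2.66, 2.63 and 3.09 to 13.6, 11, 11.8 and 11.4 CPM (log2 change 1.98 ± 0.29, adjusted p = 1.33e-04). Every TCPOBOP liver lay above every vehicle liver in both. Of 20 ester and epoxide hydrolases, 6 rose and 2 fell (0 without vehicle 3 or 4 or TCPOBOP 2, 3 or 4, 1 without TCPOBOP 1, with library totals or with the wild-type libraries alone, 5 with DESeq2 or without both libraries numbered 2, 6 without vehicle 2). Ces2a, a carboxylesterase of drugs and lipids, went from 422, 768, 502 and 721 to 5503, 7297, 6573 and 6284 CPM (log2 change 3.41 ± 0.21, adjusted p = 8.80e-09). Ephx1, the microsomal epoxide hydrolase, went from 216, 282, 382 and 461 to 981, 1386, 1095 and 1327 CPM (log2 change 1.84 ± 0.26, adjusted p = 8.96e-05). Ces2c, a neighbour of Ces2a in the same gene cluster, rose from 6.30, 6.08, 13.5 and 21.4 to 99.2, 152, 119.8 and 136 CPM (log2 change 3.41 ± 0.43, adjusted p = 2.75e-05). In these 3 genes the groups were far apart compared with their spread. Of 40 aldehyde, alcohol and quinone oxidoreductases, 10 rose and 4 fell (1 without TCPOBOP 4, 2 without vehicle 3 or 4 or TCPOBOP 3, with library totals or with the wild-type libraries alone). Aldh1a7, an aldehyde dehydrogenase, rose from 181, 175, 232 and 214 to 829.8, 863, 800.4 and 839 CPM (log2 change 2.05 ± 0.15, adjusted p = 1.13e-07), with nearly equal values within each group. Fmo5, a flavin monooxygenase, rose from 964, 616, 745 and 756 to 2238, 2192, 2334 and 1957 CPM (log2 change 1.50 ± 0.17, adjusted p = 1.12e-05). Akr1d1, the steroid beta-reductase that also acts on bile acid intermediates, rose from 178, 119.6, 164 and 175 to 512, 448, 584 and 587 CPM (log2 change 1.74 ± 0.25, adjusted p = 9.14e-05). The groups did not overlap in either. Aox3, an aldehyde oxidase, fell from 614, 485, 1051 and 1043 to 322, 261, 266 and 213 CPM (log2 change -1.59 ± 0.35, adjusted p = 0.00438).

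Transport genes changed in part, 16.1% rising and 6.45% falling, against 8.09% and 4.99% of all genes. Of 31 transporters, 5 rose and 2 fell (1 without TCPOBOP 2, 3 or 4, 4 without vehicle 2 or without both libraries numbered 2). Abcc4, an efflux pump of the basolateral membrane, went from 2.93, 6.84, 4.88 and 4.36 to 25.0, 51.6, 30.0 and 52.7 CPM (log2 change 3.05 ± 0.38, adjusted p = 2.59e-05). Abcc3, an exporter of glucuronides into blood, went from 286, 721, 401 and 451 to 874, 1276, 1033 and 1103 CPM (log2 change 1.21 ± 0.24, adjusted p = 0.00198). Vehicle 2 was the highest vehicle liver in both and still lay below every TCPOBOP liver. Slc10a2, the sodium-dependent bile acid importer best known from the ileum, rose 2.75-fold (log2 change 1.46 ± 0.22, adjusted p = 1.49e-04). Slc22a7, an organic anion carrier, fell by 1.54 on the log2 scale (adjusted p = 0.00811), with overlapping groups, as vehicle 2 at 18.6 CPM lay within the TCPOBOP range of 15.4 to 28.7 CPM.

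Some genes were near silent in vehicle liver. At most 3 counts over the 4 libraries of either group, and a mean of at least 1 CPM in the other, were found for 10 genes past the threshold. Those given here were near silent with vehicle. Such genes could pass the filter on low counts only through another group, so their ratios do not describe low genes in general. Pnliprp1, a relative of pancreatic lipase, had no vehicle count and 16.2, 26.5, 24.8 and 17.2 CPM with TCPOBOP, at least 275-fold higher against a floor of 3 counts over the vehicle group. Sult1e1, the estrogen sulfotransferase, had 1 vehicle count, in vehicle 4, and 25.9, 30.6, 66.4 and 41.4 CPM with TCPOBOP, a ratio of 1619 with a 95% counting interval of 290.4 to 63961. Every one of these TCPOBOP libraries held far more reads than the 4 vehicle libraries together. Sult3a1, a second sulfotransferase, had 2 vehicle counts and 9.30, 8.76, 9.72 and 4.14 CPM with TCPOBOP (ratio 155, 42.8 to 1286). Meig1, named for its role in male germ cells, had 1 vehicle count, in vehicle 1, and 11.9, 9.21, 14.0 and 18.3 CPM (ratio 519, 92.9 to 20514). Sorcs3, a sorting receptor of neurons, had 1 vehicle count, also in vehicle 1, and 4.16, 4.92, 2.52 and 2.41 CPM (ratio 137, 24.3 to 5412). Not one of these 3 had a TCPOBOP library below 2.41 CPM. A little above this floor, Fndc5, the precursor of the secreted peptide irisin, went from 0.733, 0.76, 0.375 and 0.545 to 36.8, 40.1, 38.9 and 39.5 CPM (log2 change 6.01 ± 0.32, adjusted p = 1.94e-09), with the 4 TCPOBOP livers nearly level.

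Other genes with the largest changes belonged to none of the pathways of drug metabolism. Chrdl2, a secreted antagonist of bone morphogenetic proteins, rose from 0.147, 0.0951, 0.188 and 0 to 6.13, 12.5, 10.3 and 11.5 CPM (log2 change 6.48 ± 0.59, adjusted p = 8.53e-07). Gprc5a, a receptor-like membrane protein induced by retinoic acid, rose from 0.147, 0.19, 0 and 0.0909 to 6.56, 10.8, 11 and 4.96 CPM (log2 change 6.20 ± 0.56, adjusted p = 7.95e-07). Nebl, the actin-binding protein nebulette, rose from 0.147, 0.285, 0.375 and 0.0909 to 10.2, 14.8, 16.3 and 22.5 CPM (log2 change 6.05 ± 0.49, adjusted p = 2.37e-07). All 3 were at or below 0.375 CPM, the level of Nebl in vehicle 3, in every vehicle liver, and at or above 4.96 CPM, the level of Gprc5a in TCPOBOP 4, in every TCPOBOP liver. Among the falls, Susd4, a membrane inhibitor of complement, went from 17.3, 7.98, 50.8 and 58.7 to 4.21, 2.19, 3.74 and 1.64 CPM (log2 change -3.52 ± 0.50, adjusted p = 9.14e-05). Hsd17b6, a dehydrogenase of androgens and retinol, fell from 46.8, 97.3, 125 and 140.2 to 16.6, 9.65, 13.4 and 6.83 CPM (log2 change -3.14 ± 0.33, adjusted p = 4.18e-06). Mme, the peptidase neprilysin, fell from 11.3, 13.4, 13.9 and 36.1 to 1.80, 3.35, 2.76 and 1.44 CPM (log2 change -2.99 ± 0.37, adjusted p = 2.36e-05). In each the highest TCPOBOP liver lay below the lowest vehicle liver. Ptgds, prostaglandin D2 synthase, fell from 9.68, 45.4, 7.13 and 5.09 to 2.79, 0.849, 2.62 and 1.15 CPM (log2 change -3.19 ± 0.65, adjusted p = 0.00248), and the size rested in part on vehicle 2 (log2 change -1.97 without vehicle 2, and log2 change -1.73 without both libraries numbered 2).

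Antioxidant genes and retinoid genes split. The antioxidant list rose in 25.9% and fell in 11.1%, against 8.09% and 4.99% of all genes. Of 27 genes of glutathione synthesis and targets of NRF2, the sensor of oxidative and electrophilic stress, 7 rose and 3 fell (5 with DESeq2). Srxn1, which repairs peroxiredoxins, went from 41.2, 57.0, 48.8 and 57.6 to 158, 352, 329 and 493 CPM (log2 change 2.70 ± 0.27, adjusted p = 2.50e-06). Nqo1, a quinone reductase, went from 3.52, 7.41, 3.66 and 4.63 to 10.9, 15.6, 10.2 and 22.9 CPM (log2 change 1.62 ± 0.28, adjusted p = 5.24e-04). TCPOBOP 4 was the highest library in both. Gsr, which regenerates reduced glutathione, rose from 98.1, 104, 109 and 115 to 183, 223, 216 and 256 CPM (log2 change 1.04 ± 0.15, adjusted p = 1.03e-04). In the opposite direction, the metallothionein genes Mt1, from 462, 778, 235 and 203 to 104, 82.4, 46.9 and 38.4 CPM (log2 change -2.63 ± 0.58, adjusted p = 0.00505), and Mt2 (adjusted p = 0.0021) fell, with vehicle 1 and 2 higher than vehicle 3 and 4 in each.

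Of 25 retinoid genes, 5 rose and 5 fell. Rarb, the retinoic acid receptor beta and itself a textbook target of retinoic acid, rose from 5.57, 3.99, 3.56 and 5.27 to 11.4, 17.9, 17.1 and 19 CPM (log2 change 1.83 ± 0.31, adjusted p = 5.39e-04). Aldh1a1, which makes retinoic acid, went from 677, 335, 1185 and 1037 to 2219, 2150.3, 2032 and 2435 CPM (log2 change 1.45 ± 0.29, adjusted p = 0.00198). Cyp26b1, which degrades retinoic acid, fell from 16.9, 7.60, 12.6 and 18.7 to 1.48, 1.30, 0.982 and 1.54 CPM (log2 change -3.39 ± 0.31, adjusted p = 1.08e-06). The retinol dehydrogenase genes Rdh16 (log2 change -3.31 ± 0.35, adjusted p = 5.42e-06) and Rdh9 (log2 change -3.28 ± 0.31, adjusted p = 1.34e-06) and the retinol saturase gene Retsat (log2 change -2.09 ± 0.32, adjusted p = 2.20e-04) fell as well. In each of these 6 genes the groups did not overlap. Rdh11, a reductase of retinal, rose from 99.7, 95.7, 88.5 and 93.3 to 166, 214, 155 and 184 CPM (log2 change 0.93 ± 0.18, adjusted p = 0.0017).

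Cell-cycle genes rose almost throughout. Of 84 mitosis genes, 79 rose and 0 fell, with a median log2 change of 3.06, and of 58 genes of DNA replication and S phase, 47 rose and 1 fell, with a median of 1.55. Across all genes 8.09% rose and the median was -0.02. The mitosis list held 0.019, 0.0248, 0.0148 and 0.0158% of the counts in vehicle and 0.0792, 0.0955, 0.114 and 0.128% in TCPOBOP libraries (exact permutation p = 0.0286, 0.04 adjusted). In a bulk sample, a larger number of cycling cells and more of this RNA per cell cannot be told apart.

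Genes of cell-cycle entry changed in part, 38.6% rising and 5.26% falling, against 8.09% and 4.99% of all genes. Of 57 genes of G1 control and of the E2F and p53 circuits, 22 rose and 3 fell (0 without vehicle 4 or TCPOBOP 2, 3 or 4 or with library totals, 1 without vehicle 3). Ccnd1, cyclin D1, was at 21.7, 133, 29.3 and 45.9 CPM in vehicle and 114, 140.0, 161 and 170.0 CPM in TCPOBOP livers (log2 change 1.34 ± 0.40, adjusted p = 0.0303). Vehicle 2 lay within the TCPOBOP range, and the call depended on single libraries (adjusted p = 0.0729 without vehicle 1, 0.0948 without vehicle 3, 0.0825 without vehicle 4, 0.0512 without TCPOBOP 2, 0.0752 without TCPOBOP 3, 0.0846 without TCPOBOP 4 and log2 change 2.17 without vehicle 2, and adjusted p = 0.11 with the wild-type libraries alone and log2 change 2.19 without both libraries numbered 2). Myc, a growth-promoting transcription factor, was at 22.0, 35.4, 8.82 and 13.8 CPM and 29.3, 64.2, 62.0 and 58.6 CPM (log2 change 1.42 ± 0.34, adjusted p = 0.00793), with 3 of 4 TCPOBOP livers above all vehicle livers. Cdkn1a, the p21 inhibitor, was at 4.10, 10.6, 14.1 and 4.63 CPM and 17.0, 15.5, 17.6 and 20.3 CPM and did not pass (log2 change 1.06 ± 0.47, adjusted p = 0.16), although all 4 TCPOBOP livers lay above all vehicle livers. Cdkn2c, the p18 inhibitor of cyclin D kinases, rose from 6.89, 7.03, 4.31 and 3.45 to 21.8, 21.1, 25.4 and 25.3 CPM (log2 change 2.12 ± 0.24, adjusted p = 8.44e-06). Cdkn3, a phosphatase of cyclin-dependent kinases that peaks in dividing cells, rose from 0.147, 0.19, 0.0938 and 0.363 to 2.19, 3.62, 3.65 and 4.43 CPM (log2 change 4.02 ± 0.54, adjusted p = 1.18e-04). E2f1 (log2 change 1.98 ± 0.35, adjusted p = 8.23e-04) and E2f2 (log2 change 2.37 ± 0.32, adjusted p = 5.78e-05), drivers of S-phase genes, rose, as did Rbl1, the p107 pocket protein that restrains them (log2 change 2.23 ± 0.32, adjusted p = 1.09e-04).

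Among genes of S phase, its checkpoint and mitosis, the groups lay far apart. Rrm2, the ribonucleotide reductase subunit that makes deoxynucleotides, was at 15.0, 6.46, 4.13 and 5.18 CPM in vehicle and 99.3, 88.4, 144 and 157 CPM in TCPOBOP livers (log2 change 4.02 ± 0.36, adjusted p = 7.24e-07). Atr, the kinase that guards replication forks, was at 11.4, 5.32, 9.19 and 11.6 CPM and 43.9, 33.3, 47.0 and 47.6 CPM (log2 change 2.20 ± 0.23, adjusted p = 4.05e-06). Chek1, the kinase it activates, was at 0.586, 0.0951, 0.469 and 0.363 CPM and 4.70, 2.86, 8.18 and 9.53 CPM (log2 change 4.08 ± 0.51, adjusted p = 2.55e-05). Of 40 DNA repair genes, 26 rose and 0 fell (1 without vehicle 2 or without both libraries numbered 2), with a median of 1.34. The share that rose was 65.0%, against 8.09% of all genes. Rmi2, of the complex that dissolves recombination intermediates, rose from 0.147, 0.19, 0.0938 and 0.182 to 2.02, 1.97, 2.66 and 2.98 CPM (log2 change 3.88 ± 0.44, adjusted p = 1.01e-05). Prc1, which bundles microtubules of the central spindle, was at 1.03, 2.47, 0.938 and 0.909 CPM and 12.6, 14.7, 15.3 and 17.5 CPM (log2 change 3.47 ± 0.30, adjusted p = 5.24e-07). Kif20b, a kinesin of cytokinesis, was at 0.44, 0.285, 0.375 and 0.363 CPM and 5.25, 5.54, 7.29 and 7.84 CPM (log2 change 4.13 ± 0.38, adjusted p = 1.01e-06). Mki67, the Ki-67 antigen of cycling cells, was at 4.10, 6.27, 2.34 and 2.91 CPM and 30.3, 37.5, 38.9 and 41.1 CPM (log2 change 3.24 ± 0.33, adjusted p = 2.63e-06). In each of these 7 genes the lowest TCPOBOP liver was above the highest vehicle liver, and TCPOBOP 3 and 4 were higher than TCPOBOP 1 and 2. Ccna2, cyclin A2, which acts from S phase to mitosis, rose from 2.64, 3.80, 2.63 and 2.54 to 16, 15.7, 19.9 and 22.5 CPM (log2 change 2.67 ± 0.40, adjusted p = 1.79e-04). Chaf1b, of the factor that loads histones on new DNA, rose from 2.35, 3.23, 1.22 and 1.18 to 13.7, 11.9, 16.1 and 16.6 CPM (log2 change 2.88 ± 0.30, adjusted p = 3.59e-06). Cdca2, a mitotic chromatin phosphatase subunit, rose from 0.586, 1.24, 0.563 and 0.727 to 6.84, 7.51, 8.51 and 9.43 CPM (log2 change 3.34 ± 0.30, adjusted p = 6.70e-07). The groups did not overlap in any of these 3 either. Foxm1, the transcription factor of G2 and mitosis, rose by 3.07 ± 0.41 (adjusted p = 5.25e-05, and 3.86 without vehicle 2). Mcm10, a replication initiation factor, was the only member of the replication list to fall, from 61.3, 66.9, 63.1 and 76.2 to 37.5, 29.8, 24.9 and 20.5 CPM (log2 change -1.25 ± 0.27, adjusted p = 0.00388), while the replicative helicase gene Mcm4 rose from 4.98, 7.51, 3.38 and 2.91 to 19.3, 17.2, 30.4 and 32.8 CPM (log2 change 2.41 ± 0.30, adjusted p = 2.55e-05).

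The promoters of the most clearly changed cell-cycle genes are shown because the members of these lists moved together. They are the 250 bases before the transcription start, 5′ to 3′ on the gene's strand, from RefSeq GRCm38.p6, for the 4 members of either list with the smallest p among those with a promoter in the table, followed by Gstm3 from another list. Capitals mark matches, on either strand, to CCAAT (bound by NF-Y), TTTGAA (the cell cycle homology region), TTTCGCG (E2F), TGACNNNGC (antioxidant response element) and TATAAA (bound by TBP). The windows are chr7:80294201-80294450 on the plus strand for Prc1, chr8:22185820-22186069 on the minus strand for Ckap2, chr12:24708004-24708253 on the plus strand for Rrm2, chr19:34922108-34922357 on the plus strand for Kif20b and chr3:107969175-107969424 on the minus strand for Gstm3.
Prc1: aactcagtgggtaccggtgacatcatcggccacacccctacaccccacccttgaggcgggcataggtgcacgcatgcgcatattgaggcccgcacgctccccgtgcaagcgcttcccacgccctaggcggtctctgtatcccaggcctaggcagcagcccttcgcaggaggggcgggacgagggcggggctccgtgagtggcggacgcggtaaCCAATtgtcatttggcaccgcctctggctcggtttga
Ckap2: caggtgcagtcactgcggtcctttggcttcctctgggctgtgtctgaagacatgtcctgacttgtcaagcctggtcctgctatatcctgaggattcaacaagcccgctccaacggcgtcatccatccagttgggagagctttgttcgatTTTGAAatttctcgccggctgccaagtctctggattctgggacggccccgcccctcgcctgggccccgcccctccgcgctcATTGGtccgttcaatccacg
Rrm2: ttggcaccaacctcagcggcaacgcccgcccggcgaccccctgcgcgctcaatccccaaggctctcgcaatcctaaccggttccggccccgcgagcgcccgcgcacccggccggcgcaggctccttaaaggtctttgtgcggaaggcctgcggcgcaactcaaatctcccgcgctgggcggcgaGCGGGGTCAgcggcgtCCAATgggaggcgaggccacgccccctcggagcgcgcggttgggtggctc
Kif20b: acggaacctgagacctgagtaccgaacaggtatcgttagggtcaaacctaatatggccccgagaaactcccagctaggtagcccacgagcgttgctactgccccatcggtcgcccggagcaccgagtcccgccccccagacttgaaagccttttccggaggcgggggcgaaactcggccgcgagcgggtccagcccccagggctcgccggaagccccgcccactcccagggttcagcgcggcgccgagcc
Gstm3: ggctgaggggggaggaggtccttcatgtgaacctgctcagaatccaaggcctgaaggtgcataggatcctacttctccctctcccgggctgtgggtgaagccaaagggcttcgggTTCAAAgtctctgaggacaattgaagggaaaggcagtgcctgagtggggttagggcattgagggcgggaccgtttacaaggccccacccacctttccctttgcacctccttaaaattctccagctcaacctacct

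Among the called mitosis genes, 64 of 79 had a promoter in the table, and 42 of these (65.6%) held CCAAT on either strand, as did 25 of 40 (62.5%) called replication genes. The share was 44.4% of 828 promoters of all genes that rose, 36% of 489 of genes that fell, 36.7% of 10226 of tested genes and 34.5% of all 27025 genes with a promoter. TTTGAA was in 37.5% of the mitosis and 20% of the replication promoters, against 15.1% of genes that rose, 10.9% of tested and 16.3% of all promoters. TTTCGCG was rare, in 3 mitosis and 3 replication promoters (4.69% and 7.5%), against 2.78% of genes that rose, 1.4% of tested and 0.703% of all promoters. TATAAA was in 4.69% and 5% of them, against 6.69% of tested and 13% of all promoters. Of 7 promoters of called glutathione and NRF2 genes, 2 held TGACNNNGC, which was in 12.1% of tested and 10.1% of all promoters. It was also in 18.8% of the mitosis and 22.5% of the replication promoters and in 13.4% of those of genes that rose. With only 7 promoters, it does not set the glutathione and NRF2 genes apart. A match is a description of these letters and shows no binding. No motif's letters are contained in another's on either strand.

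Of the lists of protein and membrane machinery, that of the proteasome stood above the share of all genes that rose (8.09%), at 34.3%. Others lay near or below it, at 10.4% for ribosome biogenesis, 3.12% for chaperones of the endoplasmic reticulum and 11.1% for phospholipid synthesis. The shares that fell in these 3 lists were 0, 3.12 and 5.56%, against 4.99% of all genes. Of 35 proteasome genes, 12 rose (4 without vehicle 1, 5 without TCPOBOP 3 or 4, 7 without vehicle 3 or TCPOBOP 2 or without both libraries numbered 2, 20 with the wild-type libraries alone) and 0 fell, with a median log2 change of 0.54. In 26 of the 35 the groups did not overlap, as they did not in 20.9% of all genes tested. Psmd8, a lid subunit, went from 103, 104, 102 and 104 to 141, 197, 181 and 178 CPM (log2 change 0.75 ± 0.14, adjusted p = 0.00144). Psmd14, the deubiquitinase of the lid, went from 41.2, 28.7, 39.6 and 43.2 to 67.2, 70.3, 76.7 and 83.2 CPM (log2 change 0.96 ± 0.20, adjusted p = 0.00294). These rises were under 2-fold but lay outside the vehicle range in every liver. Of 48 ribosome biogenesis genes, 5 rose (2 without vehicle 1 or 3 or TCPOBOP 3 or 4, 9 with library totals or without both libraries numbered 2, 10 without vehicle 2) and 0 fell. Nolc1, a nucleolar chaperone, rose from 26.1, 24.9, 23.4 and 30.9 to 49.9, 47.5, 60.8 and 60.6 CPM (log2 change 1.06 ± 0.18, adjusted p = 4.63e-04). Of 32 genes of the endoplasmic reticulum chaperones and stress response, 1 rose (0 without vehicle 1 or 3 or TCPOBOP 4 or with thinned counts, 2 without vehicle 2 or without the filter, 4 with library totals or with DESeq2) and 1 fell (0 without vehicle 3 or 4 or TCPOBOP 3 or 4), and of 36 genes of phospholipid synthesis and the reticulum membrane, 4 rose (7 without vehicle 2) and 2 fell (4 with the wild-type libraries alone). Pla2g6, a calcium-independent phospholipase, rose from 31.1, 68.2, 35.9 and 47.1 to 82.9, 138, 85.9 and 91.3 CPM (log2 change 1.12 ± 0.23, adjusted p = 0.00296). Gpcpd1, which breaks down glycerophosphocholine, fell from 315, 282, 191 and 253 to 108, 114, 97.6 and 107 CPM (log2 change -1.29 ± 0.29, adjusted p = 0.00619). The groups did not overlap in these 3 genes. Of 49 subunits of oxidative phosphorylation, 0 rose (1 with library totals or with the wild-type libraries alone) and 1 fell (0 without vehicle 2 or 4 or TCPOBOP 1, 3 or 4, with library totals or without the filter), and their share of counts was 0.774% ± 0.0801 in vehicle and 0.69% ± 0.0562 in TCPOBOP livers (exact permutation p = 0.171, 0.2 adjusted).

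**Figure D3:**
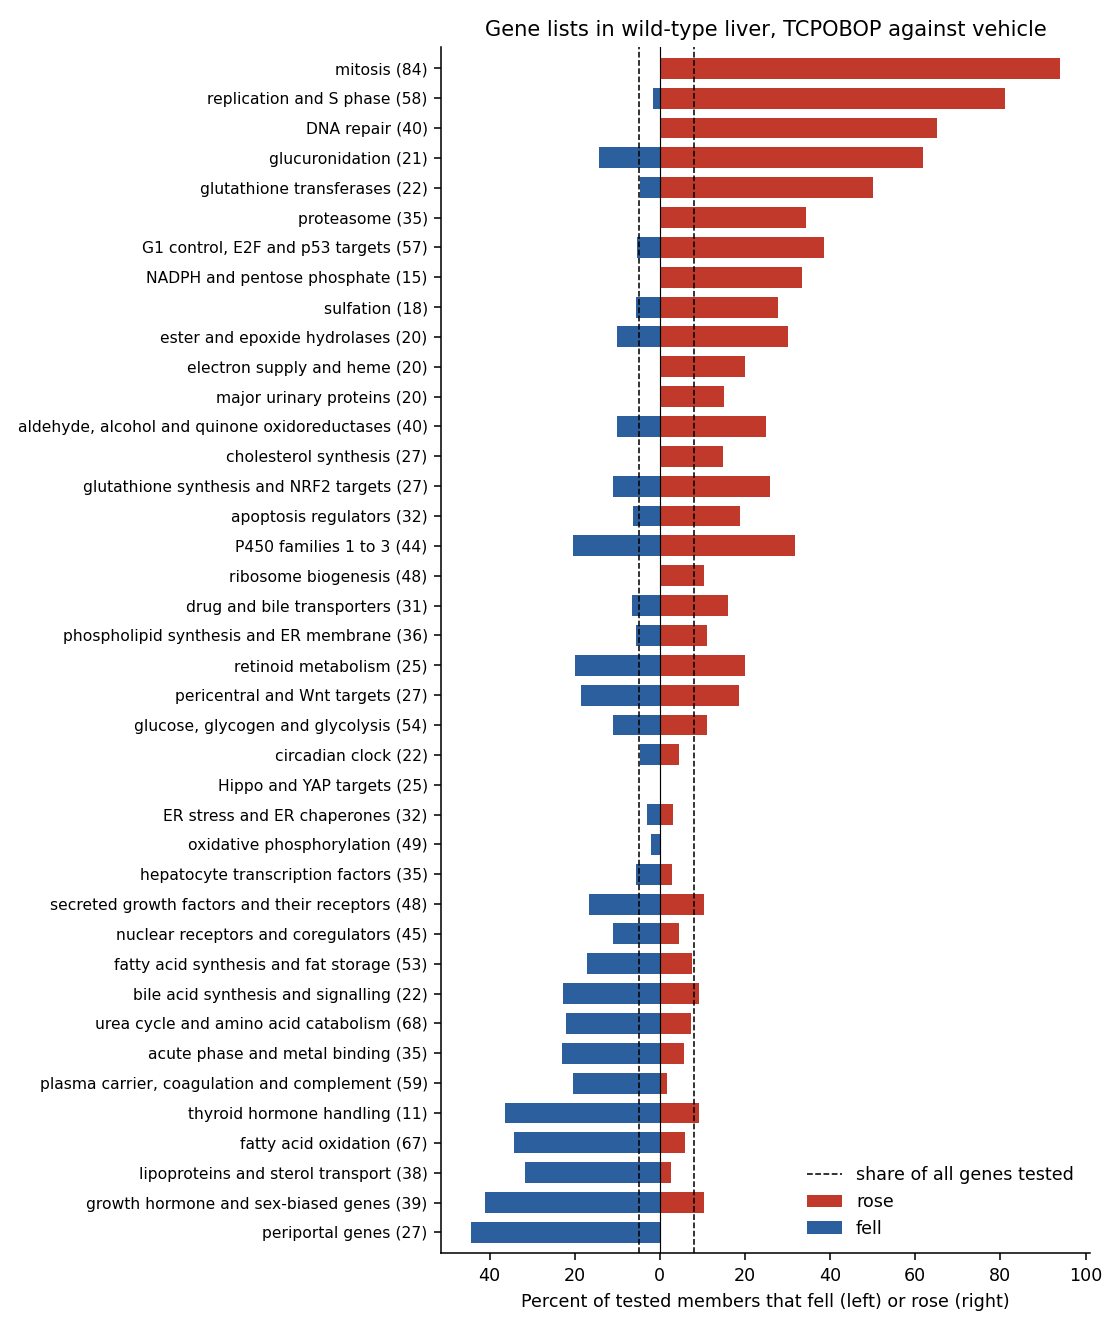
Percent of the tested members of each gene list that rose (right, red) and fell (left, blue) with TCPOBOP in wild-type liver, with the number tested beside each name and dashed lines at the shares of all genes that rose (8.09%) and fell (4.99%). Mitosis, replication and DNA repair reach furthest to the right, and periportal, growth hormone and thyroid hormone genes furthest to the left.

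The gene of the receptor itself fell. Of 45 nuclear receptors and coregulators, 2 rose and 5 fell (3 without TCPOBOP 3 or 4). These were 4.44% and 11.1%, against 8.09% and 4.99% of all genes. For the hepatocyte transcription factors, given below, the shares were 2.86% and 5.71%. Nr1i3 (NM_001243063, chromosome 1, 171213934 to 171218845), which encodes CAR, was at 107, 93.3, 106 and 94.5 CPM in vehicle and 53.4, 57.8, 46.2 and 51.6 CPM in TCPOBOP livers (log2 change -0.94 ± 0.19, adjusted p = 0.00198). Its gene overlaps Tomm40l, which was at means of 91.7 and 48.5 CPM, so part of the reads could belong to either. Nr1i2, the pregnane X receptor PXR, was at 129, 194, 109 and 113 CPM and 115, 141, 109 and 107 CPM (log2 change -0.21 ± 0.19, adjusted p = 0.554). Rxra, the partner of both, was at 679.7, 782, 609 and 536 CPM and 616, 672, 528 and 475 CPM (log2 change -0.19 ± 0.18, adjusted p = 0.575). Neither of these passed, and their groups overlapped. Ahr, the aryl hydrocarbon receptor, rose from 60, 49.0, 111 and 100.5 to 171, 144, 187 and 202 CPM (log2 change 1.13 ± 0.26, adjusted p = 0.00685). Ppara, the receptor that drives fatty acid oxidation, fell from 281, 167, 331 and 354 to 147, 136, 111 and 96.7 CPM (log2 change -1.21 ± 0.30, adjusted p = 0.0112). The bile acid receptor FXR, encoded by Nr1h4, was at 110.4, 59.1, 120.2 and 131 CPM and 109.6, 101, 102 and 88.1 CPM (log2 change -0.07 ± 0.21, adjusted p = 0.895). Its target Nr0b2, the repressor SHP, was at 61.3, 44.4, 63.2 and 33.8 CPM and 46.9, 36.4, 45.4 and 35.6 CPM (log2 change -0.30 ± 0.29, adjusted p = 0.588). Neither passed. Nr4a1, an immediate early receptor, fell from 11.4, 19.8, 11.3 and 15.3 to 4.48, 9.83, 5.70 and 6.21 CPM (log2 change -1.14 ± 0.28, adjusted p = 0.0113). Of 35 hepatocyte transcription factors, 1 rose (0 without vehicle 4 or TCPOBOP 3 or without both libraries numbered 2) and 2 fell (1 without TCPOBOP 1, 3 or 4, with library totals, with the lowest accession per gene or with the wild-type libraries alone, 4 with DESeq2 or without both libraries numbered 2, 5 without vehicle 2), and Hnf4a, the central one, was at 981, 1309.6, 1054 and 1076 CPM and 1014, 1017, 917 and 832 CPM (log2 change -0.23 ± 0.24, adjusted p = 0.635).

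Many genes of fat burning fell. Fatty acid oxidation genes rose in 5.97% and fell in 34.3%, against 8.09% and 4.99% of all genes. These shares were 7.55% and 17.0% for fatty acid synthesis and storage. Of 67 fatty acid oxidation genes, 4 rose (2 without vehicle 1, 3 or 4 or TCPOBOP 1, 2, 3 or 4, with thinned counts or with the wild-type libraries alone) and 23 fell, with a median log2 change of -0.49. Acot1, a thioesterase of long-chain acyl-CoA, went from 4.69, 5.04, 4.13 and 9.72 to 0.547, 1.03, 0.795 and 0.77 CPM (log2 change -2.89 ± 0.40, adjusted p = 7.64e-05). No TCPOBOP liver reached the lowest vehicle liver. Cyp4a10, an omega-hydroxylase and target of PPAR alpha, was at 25.9, 30.1, 9.75 and 198 CPM and 1.75, 2.55, 0.748 and 1.15 CPM, and the size of its fall rested on vehicle 4 (log2 change -5.40 ± 0.92, adjusted p = 5.08e-04, and log2 change -3.81 without vehicle 4, and log2 change -6.01 without both libraries numbered 2). Cyp4a14, its close relative, fell from 14.7, 47.3, 4.03 and 68.7 to 0.875, 0.804, 0.0935 and 0.577 CPM (log2 change -5.83 ± 1.09, adjusted p = 0.00127), likewise by an amount that rested in part on vehicle 4 (log2 change -5.22 without vehicle 4). Slc27a1, a fatty acid importer, fell from 7.92, 13.7, 8.82 and 10.6 to 3.61, 4.56, 2.43 and 2.50 CPM (log2 change -1.65 ± 0.23, adjusted p = 9.39e-05). Against this direction, Cyp4f15 (log2 change 1.19 ± 0.18, adjusted p = 2.01e-04) and Cyp4a12a (log2 change 1.11 ± 0.28, adjusted p = 0.012, and adjusted p = 0.0669 without both libraries numbered 2) rose. Of 53 genes of fatty acid synthesis and storage, 4 rose and 9 fell (5 without TCPOBOP 3 or 4). Fasn, fatty acid synthase, was at 1956, 2796, 501 and 739.6 CPM and 1717, 3368, 2150.3 and 1845 CPM (log2 change 0.60 ± 0.42, adjusted p = 0.418), with vehicle 3 and 4 below all TCPOBOP livers and vehicle 1 and 2 among them. Srebf1, the lipogenic transcription factor (log2 change -0.71 ± 0.46, adjusted p = 0.371), and its target Scd1, a desaturase (log2 change -0.67 ± 0.44, adjusted p = 0.382), did not pass. Fads1, a desaturase of polyunsaturated fatty acids, rose from 612, 642, 599 and 583 to 1164, 1432, 1126 and 1157 CPM (log2 change 1.00 ± 0.20, adjusted p = 0.00213). Lipe, hormone-sensitive lipase, fell from 15.5, 22.0, 13.7 and 12.5 to 8.64, 11.1, 8.23 and 7.22 CPM (log2 change -0.86 ± 0.21, adjusted p = 0.00876). Fitm1, a fat droplet protein, fell from 7.33, 8.84, 10.3 and 12.5 to 2.30, 3.49, 1.59 and 2.41 CPM (log2 change -2.0 ± 0.33, adjusted p = 4.48e-04). The 3 genes moved without overlap between groups. Abhd5, the co-activator of triglyceride lipase, rose from 29.2, 25.9, 32.7 and 35.1 to 56.6, 63.8, 68.1 and 70.1 CPM (log2 change 1.07 ± 0.15, adjusted p = 8.03e-05).

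Sterol and bile acid genes moved in part. Cholesterol synthesis genes rose in 14.8% and fell in 0%, against 8.09% and 4.99% of all genes. These shares were 2.63% and 31.6% for lipoproteins and sterol transport, and 9.09% and 22.7% for bile acid genes. Of 27 cholesterol synthesis genes, 4 rose (0 without TCPOBOP 2, 1 without vehicle 3, 2 without vehicle 1 or TCPOBOP 4 or without both libraries numbered 2, 7 without vehicle 2) and 0 fell. Of 38 genes of lipoproteins and sterol transport, 1 rose (0 without both libraries numbered 2, 2 without vehicle 1 or 2 or TCPOBOP 1) and 12 fell (3 without TCPOBOP 3, 4 without TCPOBOP 4). Their share of counts was 4.39, 4.88, 4.57 and 4.64% in vehicle and 3.17, 3.63, 3.10 and 3.03% in TCPOBOP libraries (exact permutation p = 0.0286, 0.04 adjusted). Scarb1, the receptor of high-density lipoprotein, fell from 195, 246, 246 and 189 to 109, 104, 87.0 and 73.0 CPM (log2 change -1.23 ± 0.21, adjusted p = 6.12e-04). Mttp, which loads lipid onto nascent lipoproteins, rose from 361, 245, 325 and 411 to 561, 569.7, 569 and 593 CPM (log2 change 0.77 ± 0.20, adjusted p = 0.0151, and adjusted p = 0.0604 without both libraries numbered 2). The groups did not overlap in either. Of 22 bile acid genes, 2 rose (1 without vehicle 1, 2 or 3 or TCPOBOP 4) and 5 fell. Cyp7a1, the rate-limiting enzyme of bile acid synthesis, was at 95.3, 100.2, 104 and 115 CPM and 110.2, 129, 92.3 and 87.8 CPM (log2 change 0.02 ± 0.35, adjusted p = 0.983), with overlapping groups. Cyp46a1, a cholesterol hydroxylase, fell from 0.88, 0.951, 1.13 and 1.73 to 0.438, 0.402, 0.28 and 0.192 CPM (log2 change -1.83 ± 0.40, adjusted p = 0.00402). Cyp7b1, of the alternative pathway, fell from 239, 172, 359 and 439 to 135, 66.0, 104 and 97.5 CPM (log2 change -1.59 ± 0.33, adjusted p = 0.00292). Klb, the coreceptor of the bile acid hormone FGF15, went from 48.1, 64.1, 41.8 and 51.7 to 17.9, 16.9, 8.83 and 11.2 CPM (log2 change -1.91 ± 0.37, adjusted p = 0.00168).

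Glucose genes moved in both directions, with 11.1% rising and 11.1% falling. Amino acid genes fell more often than they rose, at 22.1% against 7.35%. Across all genes 8.09% rose and 4.99% fell. Of 54 genes of glucose and glycogen, 6 rose (10 with library totals or with DESeq2, 11 without both libraries numbered 2, 12 without vehicle 2) and 6 fell. Pck1, the rate-limiting enzyme of gluconeogenesis, fell from 3462, 5096, 4311 and 4948 to 1614, 1390.1, 851 and 736 CPM (log2 change -1.96 ± 0.29, adjusted p = 1.65e-04), and TCPOBOP 3 and 4 were lower than TCPOBOP 1 and 2. Ldha, lactate dehydrogenase, fell from 652, 821, 599.5 and 489 to 295, 297, 226 and 183 CPM (log2 change -1.35 ± 0.23, adjusted p = 5.44e-04). Fbp1, a phosphatase of gluconeogenesis, fell from 935, 1322, 757 and 878 to 412, 537, 330.2 and 247 CPM (log2 change -1.35 ± 0.24, adjusted p = 6.44e-04). Slc2a2, the glucose transporter GLUT2, fell from 316, 150.2, 260.2 and 299 to 101, 113, 80.1 and 60.7 CPM (log2 change -1.53 ± 0.32, adjusted p = 0.00337). These losses, too, were without overlap. Pygl, the liver phosphorylase of glycogen, went the other way, from 488, 492, 457 and 516 to 799, 973, 837 and 804 CPM (log2 change 0.81 ± 0.18, adjusted p = 0.00453). Of 68 genes of the urea cycle and amino acid breakdown, 5 rose (2 without vehicle 3 or 4 or TCPOBOP 4, 3 without TCPOBOP 2, with thinned counts or with the wild-type libraries alone, 8 without vehicle 2) and 15 fell. Bhmt, which remethylates homocysteine with betaine, fell from 759, 863, 664 and 1333 to 209, 181, 212 and 71.4 CPM (log2 change -2.42 ± 0.34, adjusted p = 8.41e-05). Mat1a, which makes the methyl donor S-adenosylmethionine, went from 3715, 4413, 3115 and 4529 to 1854, 2333, 1475 and 1317 CPM (log2 change -1.18 ± 0.22, adjusted p = 0.00116). Both steps of the methionine cycle were lower in every TCPOBOP liver. Acmsd, a branch-point enzyme that keeps tryptophan carbon from NAD synthesis, rose from 23.5, 44.7, 16.7 and 21.3 to 126, 140.5, 164 and 152 CPM (log2 change 2.45 ± 0.27, adjusted p = 8.74e-06). Amdhd1, of histidine breakdown, fell from 199, 331, 296 and 286 to 149, 137, 136 and 92.5 CPM (log2 change -1.11 ± 0.20, adjusted p = 7.43e-04). Cdo1, which oxidizes cysteine, fell from 1784, 1035, 1877 and 1315 to 856, 724, 619 and 597 CPM (log2 change -1.10 ± 0.20, adjusted p = 8.63e-04). Uox, uricase, fell from 1683, 1948, 1378 and 1827 to 747, 702, 525 and 352 CPM (log2 change -1.56 ± 0.21, adjusted p = 6.63e-05).

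Plasma proteins lost part of the pool. Carriers, coagulation and complement proteins held 18.8, 20.9, 17.3 and 15.8% of the counts in vehicle and 14.0, 13, 12.4 and 10.4% in TCPOBOP libraries, a difference of -5.72 percentage points (exact permutation p = 0.0286, 0.04 adjusted, and 0.05714 unadjusted without TCPOBOP 4). A share weighs abundant genes most, and the carriers Alb and Trf, given below, made up much of this difference. Of the 59 members tested, 46 did not pass. The members rose in 1.69% and fell in 20.3%, against 8.09% and 4.99% of all genes. Of 59 of these genes, 1 rose (2 without vehicle 2, with library totals or with DESeq2) and 12 fell (6 without TCPOBOP 3 or 4, 7 without vehicle 1 or 3, 19 with DESeq2). Alb, albumin (NM_009654, chromosome 5, 90460870 to 90476602), fell from 50768, 68904, 36108 and 42993 to 19290.2, 20879.7, 15492 and 11796 CPM (log2 change -1.56 ± 0.25, adjusted p = 2.71e-04). Trf, the iron carrier transferrin, went from 25169.8, 26869.7, 28577 and 23497 to 13906, 12507, 10245 and 7731 CPM (log2 change -1.23 ± 0.23, adjusted p = 0.00128). Vehicle 2 was highest in albumin and TCPOBOP 4 lowest in both. Serpina6, the carrier of corticosteroids, was the 1 member that rose, from 223, 380.4, 166 and 150.0 to 479, 675, 461 and 527 CPM (log2 change 1.22 ± 0.28, adjusted p = 0.00664). Of 35 acute phase and metal-binding genes, 2 rose (5.71%) and 8 fell (22.9%). Orm3, of the orosomucoid family of acute phase proteins, rose from 11.4, 4.56, 19.7 and 12.7 to 66.8, 51.7, 78.3 and 51.2 CPM (log2 change 2.35 ± 0.47, adjusted p = 0.00205), and Itih2, a chain of the inter-alpha-trypsin inhibitor, fell by 1.11 on the log2 scale (adjusted p = 1.18e-04). Iron genes were among those that changed. Tfrc, the receptor that takes up transferrin, rose from 18.2, 17.3, 19.8 and 24.8 to 53.9, 36.6, 58.8 and 57.9 CPM (log2 change 1.37 ± 0.19, adjusted p = 8.74e-05). Hamp, the iron hormone hepcidin, fell from 329, 509, 562 and 387 to 132, 305, 181 and 163 CPM (log2 change -1.19 ± 0.26, adjusted p = 0.00417).

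More genes fell than rose among those under growth hormone control or with a sex bias. Of 39 growth hormone and sex-biased genes, 4 rose and 16 fell, with a median log2 change of -0.77. These were 10.3% and 41.0%, against 8.09% and 4.99% of all genes. Igf1, insulin-like growth factor 1, fell from 465, 269.8, 479 and 459 to 225, 162, 173 and 101 CPM (log2 change -1.34 ± 0.23, adjusted p = 5.50e-04). Igfals, which stabilizes it in plasma, went from 111, 222, 122 and 103 to 61.7, 41.9, 34.6 and 20.2 CPM (log2 change -1.82 ± 0.32, adjusted p = 7.38e-04). Socs2, a feedback inhibitor induced by growth hormone, fell from 10.3, 37.5, 13.7 and 28.9 to 2.30, 1.97, 2.62 and 4.52 CPM (log2 change -2.99 ± 0.56, adjusted p = 0.00137). Stat5b, the transcription factor of the pathway, went from 90.6, 113, 129 and 103 to 59.3, 66.1, 60.3 and 57.9 CPM (log2 change -0.84 ± 0.17, adjusted p = 0.00189). In all 4 genes the groups did not overlap. Vehicle 2 alone set the value of another gene of this list. Cux2, a female-biased factor, was at 0.733, 21.7, 0.188 and 0.545 CPM and 0.656, 0.581, 0.561 and 0.625 CPM, so its call (log2 change -3.26 ± 1.06, adjusted p = 0.0495) turned to a log2 change of 0.38 without vehicle 2 (adjusted p = 0.826), and the adjusted p was 0.096 without TCPOBOP 1, 0.106 without TCPOBOP 2, 0.126 without TCPOBOP 3 and 0.124 without TCPOBOP 4 (adjusted p = 0.0595 with library totals, 0.0501 with the lowest accession per gene, 0.854 without both libraries numbered 2 and log2 change 0.39 without both libraries numbered 2). Major urinary proteins, a male-biased family, held 0.917, 0.106, 1.14 and 1.31% of counts in vehicle and 1.38, 0.438, 1.28 and 1.25% in TCPOBOP libraries and did not pass (exact permutation p = 0.514). Libraries numbered 2 were the lowest of both groups, and of 20 members 3 rose and 0 fell (1 without vehicle 2). Mup18 was 1 of them, at 12.8, 0.19, 10 and 19.8 CPM and 152, 33.3, 142 and 201 CPM (log2 change 3.63 ± 0.84, adjusted p = 0.00656), in a family whose members are nearly identical in sequence. Hsd3b2, a steroid dehydrogenase of the growth hormone list, fell from 33.4, 23.0, 50.3 and 35.9 to 12.9, 6.08, 5.33 and 4.33 CPM (log2 change -2.32 ± 0.32, adjusted p = 8.25e-05).

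3 further genes, named whatever their values, did not pass. Afp, alpha-fetoprotein of fetal liver, was at 2.35, 2.66, 1.13 and 1.91 CPM and 1.20, 1.25, 1.87 and 3.27 CPM (log2 change -0.07 ± 0.41, adjusted p = 0.947). Gpc3, glypican 3, was at 3.96, 0.76, 0.469 and 2.00 CPM and 0.273, 1.25, 1.22 and 2.55 CPM (log2 change -0.36 ± 0.61, adjusted p = 0.793). Gdf15, a stress hormone, was at 197, 197, 61.9 and 41.0 CPM and 117, 312, 283 and 166 CPM (log2 change 0.82 ± 0.58, adjusted p = 0.424). In all 3 the groups overlapped.

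Other secreted signals changed too. Growth factors and receptors rose in 10.4% and fell in 16.7%, against 8.09% and 4.99% of all genes. For thyroid hormone handling the shares were 9.09% and 36.4%. Of 48 growth factors and receptors, 5 rose (3 without vehicle 4 or TCPOBOP 3) and 8 fell (4 without vehicle 3 or TCPOBOP 3 or 4, 5 without TCPOBOP 2). Lect2, a secreted hepatokine, rose from 71.7, 43.8, 78.6 and 70.9 to 245, 226, 242 and 257 CPM (log2 change 1.87 ± 0.29, adjusted p = 2.54e-04). Enho, the peptide hormone adropin, fell from 17.9, 28.9, 40.5 and 27.4 to 10.1, 7.78, 4.30 and 8.08 CPM (log2 change -1.93 ± 0.29, adjusted p = 1.40e-04). Both were without overlap. Of 11 genes of thyroid hormone handling, 1 rose (0 without vehicle 1 or TCPOBOP 3 or 4 or with the wild-type libraries alone) and 4 fell (2 without vehicle 1, 3 or 4 or TCPOBOP 3 or 4). Serpina7, thyroxine-binding globulin, fell from 37.5, 15.8, 54.0 and 50.3 to 3.28, 1.79, 2.24 and 10.3 CPM (log2 change -3.16 ± 0.50, adjusted p = 2.85e-04, and log2 change -4.02 without TCPOBOP 4). Klf9, a target of the hormone, fell from 180.2, 110.1, 174 and 188 to 102, 87.3, 75.6 and 57.7 CPM (log2 change -1.02 ± 0.21, adjusted p = 0.00286). Dio1, the deiodinase that activates and clears the hormone, was at 87.4, 25.1, 139 and 168 CPM and 256, 253, 248 and 288 CPM (log2 change 1.32 ± 0.38, adjusted p = 0.028, and adjusted p = 0.0827 without vehicle 1, 0.0549 without TCPOBOP 3, 0.0734 without TCPOBOP 4, and adjusted p = 0.0838 with the wild-type libraries alone).

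Zonal genes changed in both zones. Periportal genes rose in 0% and fell in 44.4%, and pericentral genes in 18.5% each, against 8.09% and 4.99% of all genes. Of the other lists given here, clock genes stood at 4.55% each, below both shares. Apoptosis regulators stood at 18.8% and 6.25%. Of 27 periportal genes, which are high around the incoming blood vessels of the lobule, 0 rose and 12 fell, with a median log2 change of -0.91. Etnppl, a lyase of phosphoethanolamine, fell from 253, 469.9, 125 and 185 to 50, 63.8, 22.5 and 8.71 CPM (log2 change -2.83 ± 0.52, adjusted p = 0.00104), the lowest value being TCPOBOP 4. Of 27 pericentral genes and Wnt targets, 5 rose and 5 fell (3 without vehicle 1 or TCPOBOP 3 or 4 or without the filter). The members that rose were Cyp1a2, Aldh1a1 and Lect2, given with other lists, the transcription factor Tbx3 (log2 change 1.22 ± 0.32, adjusted p = 0.0149, and adjusted p = 0.0516 without vehicle 4, 0.0573 without TCPOBOP 3, and adjusted p = 0.0517 without both libraries numbered 2) and the dicarboxylate transporter Slc13a3. Lgr5, a Wnt target and receptor, fell from 7.92, 4.47, 8.72 and 6.00 to 3.50, 2.59, 2.34 and 2.12 CPM (log2 change -1.36 ± 0.29, adjusted p = 0.00341) and Slc1a2, a glutamate importer, from 221, 128, 128 and 165 to 57.3, 59.5, 50.2 and 33.0 CPM (log2 change -1.68 ± 0.22, adjusted p = 4.15e-05). Glul, glutamine synthetase of the cells around the central vein, was at 1253, 815, 825 and 915 CPM and 580.0, 704, 598 and 448 CPM (log2 change -0.71 ± 0.22, adjusted p = 0.0356, and adjusted p = 0.128 without vehicle 1, 0.0579 without vehicle 4, 0.0754 without TCPOBOP 1, 0.0854 without TCPOBOP 3, 0.135 without TCPOBOP 4, and adjusted p = 0.0525 without the filter). Axin2, the general Wnt target, was at 3.81, 2.47, 4.50 and 4.72 CPM and 6.89, 6.88, 8.79 and 6.64 CPM (log2 change 0.91 ± 0.32, adjusted p = 0.0766, and adjusted p = 0.0474 with DESeq2, 0.0265 with the wild-type libraries alone) and did not pass in the test used throughout, with all TCPOBOP livers above all vehicle livers. Of 25 Hippo and YAP targets, 0 rose (1 without vehicle 1 or with the wild-type libraries alone, 2 without vehicle 2) and 0 fell in edgeR's test, 0 were called by DESeq2, and 4 had an unadjusted p below 0.05. Ccn2, a YAP target, was at 10.3, 20.7, 12.4 and 13.1 CPM and 10.3, 16.2, 8.41 and 15.5 CPM (log2 change -0.17 ± 0.30, adjusted p = 0.803). Of 22 clock genes, 1 rose (0 without vehicle 1, 3 or 4 or TCPOBOP 2, 3 or 4 or with thinned counts) and 1 fell (2 with DESeq2 or with the wild-type libraries alone, 3 without both libraries numbered 2, 4 without vehicle 2), and Cry1, a clock repressor, was the 1 that fell (log2 change -1.07 ± 0.20, adjusted p = 0.00142). Of 32 apoptosis regulators, 6 rose and 2 fell, with Tnfrsf10b, a death receptor, rising from 0.586, 0.57, 0.563 and 0.454 to 1.75, 1.79, 2.90 and 2.89 CPM (log2 change 2.09 ± 0.42, adjusted p = 0.00239). Bmf, which promotes apoptosis on loss of attachment, fell from 17.3, 4.75, 10.5 and 5.36 to 3.50, 2.01, 1.92 and 1.73 CPM (log2 change -2.03 ± 0.45, adjusted p = 0.00491). Both moved without overlap, in opposite directions. Mlkl, the effector of necroptosis, rose from 6.45, 5.70, 4.41 and 3.82 to 9.30, 11.6, 11.2 and 14.5 CPM (log2 change 1.20 ± 0.24, adjusted p = 0.00179). Casp6, a caspase, fell from 19.1, 21.5, 28.5 and 20.8 to 10.1, 9.07, 8.13 and 7.22 CPM (log2 change -1.38 ± 0.20, adjusted p = 1.08e-04).

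**Figure D4:**
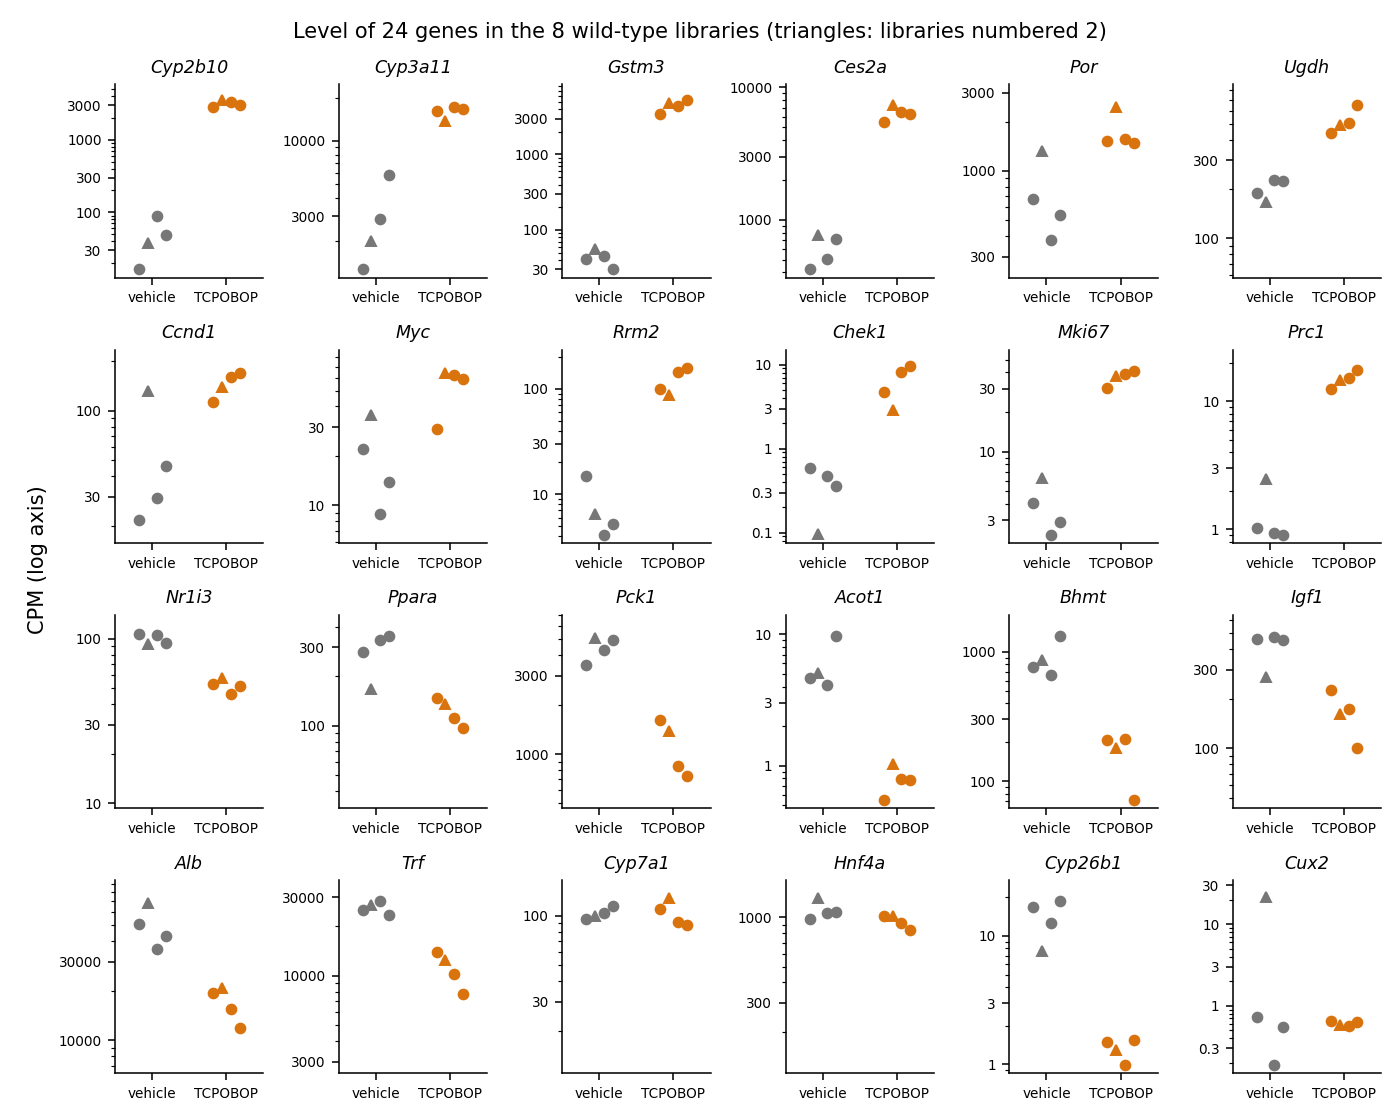
CPM of 24 genes in each wild-type library (log axis, a scale of its own for each gene), vehicle in grey and TCPOBOP in orange, with libraries numbered 2 drawn as triangles. The upper rows hold genes of drug metabolism and the cell cycle, where orange points mostly lie above grey ones (vehicle 2 is an exception in Ccnd1), and the lower rows genes of metabolism and secretion, where they mostly lie below.

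Markers of other cell types changed in few genes. Of 15 tested markers of Kupffer cells and macrophages, 16 of sinusoidal endothelium, 15 of stellate cells and fibroblasts, 6 of cholangiocytes, 5 of erythroid cells and 3 of neutrophils, 0 were called in edgeR's test. In other settings 1 stellate marker fell without vehicle 2, 1 without the filter and 1 with the wild-type libraries alone, and 1 neutrophil marker fell without vehicle 1. An unadjusted p below 0.05 was found for 1 Kupffer, 2 stellate and 1 neutrophil marker, and DESeq2 called 1 stellate marker. The summed level of the Kupffer list was 680.1 to 1402 CPM in vehicle and 653 to 891 CPM in TCPOBOP livers, and that of the endothelial list 713 to 1293 CPM in vehicle and 675 to 845 CPM in TCPOBOP livers. That of the stellate list was 435 to 641 CPM in vehicle and 363 to 486 CPM in TCPOBOP livers, and that of the erythroid list 146 to 233 CPM in vehicle and 95.9 to 206 CPM in TCPOBOP livers. Vehicle and TCPOBOP ranges overlapped in these 4 lists. They did not overlap for cholangiocyte markers, at 35.8 to 40.4 CPM in vehicle and 25.8 to 32.1 CPM in TCPOBOP livers. Of 3 tested lymphocyte markers 1 fell (0 without vehicle 3 or 4 or TCPOBOP 2 or 3, with library totals, with thinned counts or with the wild-type libraries alone), as did 1 of 2 pancreatic acinar markers, whose list summed to 12 to 22.1 CPM in vehicle and 5.70 to 9.21 CPM in TCPOBOP livers with 5 of its members at 0 in every library. The part of these cells in the changes above was not tested.

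The same treatment in the humanized strain gave a test of which wild-type changes depended on strain. The wild-type change differed from the humanized change in 963 genes (7.46%) of all those tested, 1481 by DESeq2. The count was 1703 without vehicle 2, 616 without TCPOBOP 3 and 575 without TCPOBOP 4. Among the 1690 genes called in wild-type liver, 715 (42.3%) differed in this way, all of them towards a larger change in the wild-type direction. Both sides of this share use the wild-type libraries, so it is a description. By list, 11 of 12 called glutathione transferases differed between strains, 14 of 23 P450 genes, 47 of 79 mitosis genes, 17 of 27 fatty acid oxidation genes, 4 of 16 glucuronidation genes and 2 of 12 proteasome genes. The P450 list holds mouse Cyp3a genes. What reads at these stand for in the humanized strain is not known here.

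Single genes differed in the same way. Gstm3 changed by 6.71 in wild-type and -0.21 in humanized liver, a difference of 6.91 ± 0.36 (adjusted p = 3.48e-09). Cyp2b10 changed by 6.05 and 2.59 (difference 3.45 ± 0.58, adjusted p = 0.00141), so it moved in both strains and further in wild-type liver. Mki67 changed by 3.24 and 0.08 (difference 3.16 ± 0.50, adjusted p = 8.56e-04). Alb changed by -1.56 and 0.00 (difference -1.56 ± 0.34, adjusted p = 0.00936). For Por (difference 0.97 ± 0.44, adjusted p = 0.205), Ugt1a1 (0.56 ± 0.24, adjusted p = 0.178) and Igf1 (-0.99 ± 0.32, adjusted p = 0.0691) the difference did not pass, which does not show equal responses.

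**Figure D5:**
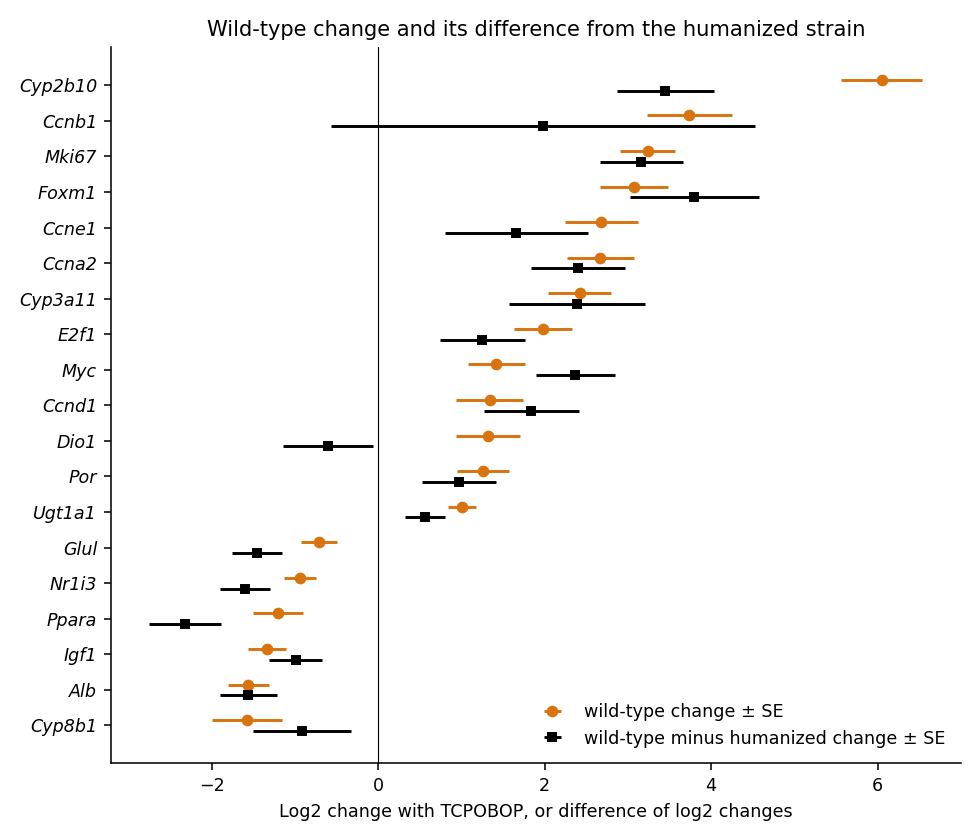
Log2 change with TCPOBOP ± SE in wild-type liver (orange circles) and the strain difference, wild-type minus humanized change, ± SE (black squares) for 19 regulators and marker genes, named whatever their values, that rose or fell in wild-type liver. Where the square lies near the circle the humanized change was near 0, as for Mki67 and Alb.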

How the data were processed

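Poly(A) RNA of 16 mouse livers was sequenced, 4 in each of 4 groups. The authors deposited whole-number counts per RefSeq transcript accession (40458 rows). STAR, DESeq2 and mm10 are named in the submitters' processing notes, with no version. The counting program and strand setting are not named in the labels. Of counts of 20 or more, 74.9% were even, so the deposited counts may have been rescaled and rounded, which would alter the counting error of low genes. Accessions were paired with symbols through RefSeq tables (40214 matched, 130 more by GENCODE, 114 unnamed), and of a gene's accessions the one with most counts on average was kept, giving 24970 genes.

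edgeR 4.0.16 (R 4.3.3) tested 12913 genes after its default filter on low counts, with TMM scaling and quasi-likelihood F tests across all 16 libraries with 1 mean per group (12 residual degrees of freedom) and Benjamini-Hochberg adjustment over all genes tested. The share of counts held by 7 families was compared by two-sided exact permutation tests. In simulated counts for this comparison (12913 genes, 200 changed), 42.9% of 2-fold and 95.9% of 4-fold changes were recovered and 2.2% of calls were false. The simulation drew libraries independently, without the deviation of the libraries numbered 2, and changed fewer genes than the 1690 called here. Its shares therefore need not hold for these data. Gene lists, their members and the rule for named genes were chosen with earlier results of these data known: named are the 12 largest changes per direction at 5 CPM or more without overlap, the 10 largest differences in CPM, up to 4 members per list and direction by p, 8 near-silent genes and a set of regulators whatever their values. Slc13a3, Ugt1a2, Tomm40l, Ddx3y and Gm30505 were named after their values were seen. Alternatives were other scalings, DESeq2 1.42.0, no filter, a replicate block, another accession per gene, thinned counts, the wild-type libraries alone, each library left out and, chosen after seeing the data, both libraries numbered 2 left out. Intervals and floors cover counting error only. Promoters are the RefSeq table's, on GRCm38.p6, taking the first listed for each of 27025 symbols. Results for a few named genes are not reported here.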

Additional observations from a re-analysis of the deposited data

Results flagged for a closer look

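In 24 of 355 groups of 4 libraries, over the genes named and the family shares, 1 library lay further from the other 3 than Dixon's test allows at 95%. Chance gives about 1 in 20. Vehicle 2 was the library in 9 of them.

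Vehicle 4 was highest of its group in Sult1e1 (0.0909 CPM), Cyp4a10 (198 CPM), Mme (36.1 CPM) and Acot1 (9.72 CPM). Vehicle 1 was highest of its group in Meig1 (0.147 CPM), Cyp2c38 (38.7 CPM) and Sorcs3 (0.147 CPM). Vehicle 2 was highest of its group in Ptgds (45.4 CPM), Gstm1 (978 CPM), Mgst3 (23.2 CPM), Prc1 (2.47 CPM), Cux2 (21.7 CPM), Cyp4f15 (177 CPM), Igfals (222 CPM) and Ccna2 (3.80 CPM). Vehicle 2 was lowest of its group in Igf1 (269.8 CPM). TCPOBOP 2 was highest of its group in Por (2450.2 CPM), Fads1 (1432 CPM) and Pla2g6 (138 CPM). TCPOBOP 2 had the lowest share of major urinary proteins of its group, 0.438%. TCPOBOP 1 was highest of its group in Bmf (3.50 CPM). TCPOBOP 1 was lowest of its group in Myc (29.3 CPM) and Foxm1 (12 CPM). TCPOBOP 3 was highest of its group in Axin2 (8.79 CPM).

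Strain differences were looked for among regulators and markers named whatever their values, but only those both called in wild-type liver and given here. Not all of the 19 called are given, so the count below is not out of 19. The log2 change with TCPOBOP differed between wild-type and humanized liver in 9 of those looked at, by edgeR's test of the difference itself. Over all genes tested 7.46% differed. The wild-type call and the difference use the same wild-type libraries, so the count of 9 is a description. Wild-type minus humanized, the difference was for Cyp2b10 3.45 ± 0.58 (adjusted p = 0.00141), Alb -1.56 ± 0.34 (adjusted p = 0.00936), Nr1i3 -1.60 ± 0.30 (adjusted p = 0.00325), Ppara -2.32 ± 0.43 (adjusted p = 0.00262), Myc 2.37 ± 0.48 (adjusted p = 0.00542), Ccna2 2.40 ± 0.57 (adjusted p = 0.0137), Foxm1 3.80 ± 0.77 (adjusted p = 0.00507), Mki67 3.16 ± 0.50 (adjusted p = 8.56e-04) and Glul -1.46 ± 0.30 (adjusted p = 0.00652). Where the difference exceeded the wild-type change, as for Myc, Foxm1, Ppara, Nr1i3 and Glul, the humanized value lay on the other side of 0 from the wild-type value. For Nr1i3 that value comes from a strain humanized for CAR itself. What reads at the mouse gene stand for there is not known here.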

How the results depend on the processing

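The number of genes that rose was 1003 with RLE size factors, 1281 with library totals, 1206 with DESeq2, 1097 without the filter and 735 to 1330 with 1 library left out. The number that fell was 691, 478, 921, 578 and 333 to 860 in the same order. For the strain difference the count was 994, 1225, 1481, 887 and 575 to 1703, and 1464 without both wild-type libraries numbered 2. The count that fell was 360 without TCPOBOP 3 and 333 without TCPOBOP 4, and the strain difference 1703 without vehicle 2, 616 without TCPOBOP 3 and 575 without TCPOBOP 4. The causes of these shifts were not tested, other than that leaving out a library reduces the samples. Library totals moved the median change of all genes from -0.02 to 0.07 on the log2 scale.

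With the replicate number as a block (replicate block), 1071 genes rose, 621 fell and 865 differed between strains. With it 1 stellate marker fell, 1 Hippo and YAP target rose, Axin2 passed (adjusted p = 0.0491) and Cux2 did not (0.261). The block left 1 glucuronidation gene that fell (3 in the main test), 0 sulfation genes (1) and 0 ester and epoxide hydrolases (2). Of G1 control genes 1 fell (3 in the main test), and of hepatocyte transcription factors 1 (2). Cholesterol synthesis genes that rose numbered 7 (4 in the main test). List counts in the Results are given without the block. The numbers did not pair the wild-type samples by the rule used, whose threshold was a correlation of 0.1. The deviations of vehicle 1 and TCPOBOP 1 correlated at 0.0997, just below it, against 0.5813, 0.2179 and 0.1751 for numbers 2 to 4. TCPOBOP 1 correlated best with vehicle 3 (0.31), but TCPOBOP 2, 3 and 4 each correlated best with the vehicle library of their own number. So narrow a miss does not show that the samples were unpaired, and the main test used no pairing.

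Leaving out 1 library, the difference in share (percentage points, TCPOBOP minus vehicle) ranged from 3.63 to 4.10 for P450 families, 1.09 to 1.29 for glutathione transferases, -6.51 to -4.83 for plasma proteins, -1.52 to -1.30 for lipoproteins, 0.0775 to 0.0939 for mitosis, -0.112 to -0.0578 for oxidative phosphorylation and -0.0368 to 0.432 for major urinary proteins. The share of plasma proteins without TCPOBOP 4 (-5.04 points) was the only called share with an exact permutation p over the threshold, 0.05714.

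Of 255 named genes, 235 were called, and 180 of these kept their call under every alternative run while 55 lost it under at least 1. Of the 20 that were not called, 3 gained a call under some alternative and 6 changed sign. Among called genes the direction changed for Cux2 alone, from -3.26 to a log2 change of 0.38 without vehicle 2 (range -3.66 to 0.38 with 1 library left out) and 0.39 without both libraries numbered 2. Depth limits the lowest genes, for which 3 counts were 0.134 to 0.44 CPM per library. Depth and treatment cannot be told apart by design, as every TCPOBOP library was deeper than every vehicle library.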

Other observations

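Of the 1690 genes called in wild-type liver, 50 were also called in humanized liver in the same direction and 43 in the opposite one. The share of all genes called in humanized liver is not given here, so these counts are a description only. Among the named genes with opposite directions, Slc2a2, the glucose transporter GLUT2, changed by -1.53 in wild-type and 2.59 in humanized liver (adjusted p = 0.00337 and 0.00116, adjusted p of the difference = 4.27e-05). Acmsd, of tryptophan breakdown, changed by 2.45 and -1.22 (adjusted p = 8.74e-06 and 0.0261, of the difference 1.91e-05). These values are log2 changes with TCPOBOP from edgeR's fit.

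Others moved the same way in both strains. Cry1, the clock repressor, fell by 1.07 in wild-type and by 1.20 in humanized liver (adjusted p = 0.00142 and 0.00566, of the difference 0.862). Pygl, liver glycogen phosphorylase, rose by 0.81 and 0.82 (adjusted p = 0.00453 and 0.0229, of the difference 0.984). Orm3, an acute phase protein, rose by 2.35 and 2.78 (adjusted p = 0.00205 and 0.00566, of the difference 0.771), and Mup18 by 3.63 and 5.21 (adjusted p = 0.00656 and 0.00859, of the difference 0.486). A difference that did not pass does not show equal responses.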
